A study of Homo sapiens with 12 samples.

Results

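The genes described here are 7 human genes of growth factor signalling: the receptor tyrosine kinases EGFR, ERBB2, ERBB3, MET and FGFR1, and the ligands EREG and AREG. They were followed in cancer cell lines through peaks of H3K27ac, the acetylated form of lysine 27 of histone H3 that marks promoters and enhancers in use. Peaks were taken when they touched a window of 100 kb on either side of a receptor gene, or the window chr4:75200000-75500000 (hg19) that holds both ligands. The 6 windows held 411 of the 224362 peaks in the 8 lists used. After overlapping peaks were merged across lists, they held 115 of 70648 regions.

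The series assayed H3K27ac by ChIP-seq (sequencing of immunoprecipitated chromatin) in 12 samples of established human lines grown in RPMI medium with serum, with 1 deposited peak list for each. The 8 lists used came from NCI-H358 and NCI-H2009, both lung adenocarcinoma (2 libraries each), HCC95, squamous cell carcinoma of the lung (1 library), Ishikawa, endometrial carcinoma (2 libraries), and BICR31 (1 library). The sample label of BICR31 says lung adenocarcinoma, whereas the design text places BICR-31 among head and neck squamous lines; the design text was followed. The other 4 lists, from H2009 cells labelled Empty, Control, e3KRAB1 and e3KRAB2, were far shorter and are given only as values at the end. All samples are labelled as untreated, so no difference described between the 8 libraries is one between labelled treatments. The libraries differ by line and replicate, and those of different lines often also by the form of their lists, as given below. Each tumour type rests on 1 or 2 lines.

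EGFR, ERBB2 and ERBB3 belong to 1 receptor family that signals as pairs. EGFR binds ligands such as amphiregulin (AREG) and epiregulin (EREG), which are made as membrane proteins and shed by proteases. ERBB2 has no known ligand and acts as the partner of the others, and ERBB3 has little kinase activity of its own and, once phosphorylated, recruits PI3 kinase. MET is the receptor for hepatocyte growth factor, and FGFR1 is a receptor for fibroblast growth factors. These receptors feed the RAS-MAP kinase and PI3 kinase pathways, and EGFR, ERBB2, MET and FGFR1 are recurrently amplified in carcinomas.

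The promoters of EGFR and MET and of both ligands are shown because the 2 pairs differed in how regularly a peak was called at their starts. The 250 bases before each start were read from the RefSeq promoter table (build GRCh38.p14, plus strand, 5′ to 3′), which held 5 of the 7 genes. Capitals mark matches, on either strand, to the SP1 GC box (GGGCGG) or to the TATA box (TATAAA). EGFR lies at chr7:55018767-55019016, MET at chr7:116671946-116672195, EREG at chr4:74364895-74365144 and AREG at chr4:74444886-74445135.
EGFR: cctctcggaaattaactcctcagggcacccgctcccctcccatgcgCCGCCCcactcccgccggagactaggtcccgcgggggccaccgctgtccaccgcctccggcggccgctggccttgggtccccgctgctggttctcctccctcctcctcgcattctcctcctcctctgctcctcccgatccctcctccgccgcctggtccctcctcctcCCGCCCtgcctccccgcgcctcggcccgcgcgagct
MET: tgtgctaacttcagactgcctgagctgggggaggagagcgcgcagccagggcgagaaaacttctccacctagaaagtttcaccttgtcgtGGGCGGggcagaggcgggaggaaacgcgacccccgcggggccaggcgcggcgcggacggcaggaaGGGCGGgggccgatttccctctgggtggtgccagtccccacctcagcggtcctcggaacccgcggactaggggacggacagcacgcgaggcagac
EREG: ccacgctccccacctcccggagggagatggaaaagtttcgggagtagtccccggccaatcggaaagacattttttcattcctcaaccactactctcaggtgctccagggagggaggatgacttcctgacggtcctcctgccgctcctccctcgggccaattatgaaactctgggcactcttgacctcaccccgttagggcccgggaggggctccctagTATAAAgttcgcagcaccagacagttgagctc
AREG: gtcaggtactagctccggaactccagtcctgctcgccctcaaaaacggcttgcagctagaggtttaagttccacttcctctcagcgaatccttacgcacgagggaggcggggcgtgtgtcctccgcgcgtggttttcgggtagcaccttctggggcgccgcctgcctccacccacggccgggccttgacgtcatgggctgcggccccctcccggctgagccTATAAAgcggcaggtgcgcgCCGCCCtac

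The EGFR and MET sequences each held 2 GC boxes and no TATAAA. The EREG sequence held TATAAA beginning 32 bases before the start and no GC box. The AREG sequence held TATAAA 29 bases before the start and 1 GC box 9 bases before it. Across all 35116 promoters of the table taken over the same 250 bases, GGGCGG stood in 42.6% and TATAAA in 10.7%. Neither TGANTCA, the AP-1 motif (in 6.57% of promoters), nor CACGTG, the E box (in 6.34%), occurred in any of the 4. G and C made up 73.6% of the EGFR sequence, 68.4% of MET, 65.2% of AREG and 58.0% of EREG, and the median over all promoters was 58.0%. These are letter matches in a short window and say nothing of which factors bind there.

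The 8 lists differ in form, which touches every result below. H358 and H2009 lists are of the narrowPeak form, with 26412 to 26954 peaks of median width 347 to 382 bp. HCC95 and BICR31 lists are of the broadPeak form, with 23400 and 42148 peaks and median widths of 814 and 893 bp. Ishikawa lists carry 5 columns, 24384 and 27311 peaks, and median widths of 1507 and 955 bp. The squamous lines are therefore also the broadPeak lists, and for these lines the tumour type and the form of the list cannot be told apart. Ishikawa is likewise the only line with 5-column lists, and its peaks are ranked by a score. Its differences from the other lines, in ranks and clusters too, cannot be told apart from the form of its lists. Sequencing depth is unknown, because a peak list holds no reads.

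Peaks at marker genes of the labelled tumour types were looked at in the same lists. A peak lay within 2 kb of the start of NKX2-1, a marker of lung adenocarcinoma, in both H358 libraries and in BICR31, and in neither H2009 library. KRT5, a squamous keratin, had one in HCC95, BICR31 and Ishikawa replicate 1. PAX8, an endometrial marker, had one in Ishikawa replicate 2 and in no other library, Ishikawa replicate 1 included. Inside PAX8, called bases were 6879 and 3862 in the Ishikawa replicates, against 539 to 1958 in the other lines. This count and that at TP63 below are not scaled to the size of the list. The Ishikawa lists hold 41.4 and 32.5 Mb of called sequence, against 10.9 to 12.0 Mb in H358 and H2009. HCC95 holds 21.4 Mb and BICR31 40.6 Mb. TP63, also a squamous marker, had a start peak in no library. Called bases inside TP63 were 12517 and 7663 in Ishikawa, 8404 in HCC95 and 10250 in BICR31. H358 and H2009 had 569 to 1217 there. The TP63 span failed the length check against RefSeq (ratio 0.8846).

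All 4 ERBB and MET receptor genes had a peak within 2 kb of a start in all 8 libraries, whereas FGFR1 had one in 3, EREG in 5 and AREG in 6. The share of all gene starts with a peak was not computed, since no hg19 annotation was used here, so these counts have no background to be read against. Peaks are described by a rank percentile, the share of peaks of the same list with a lower fold enrichment (a lower deposited score in Ishikawa). Within HCC95 and BICR31 the widest 10% of peaks had median rank percentiles of 23.8 and 37.3, against 75.1 to 78.1 in the narrowPeak lists. For wide start peaks of these 2 lists the percentile by the authors' q is therefore given as well. A peak is called distal when it lies more than 2 kb from the starts used here for the genes of its window. Starts of neighbouring genes were not checked, so a distal peak may lie at the start of another gene.

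**Figure D1:**
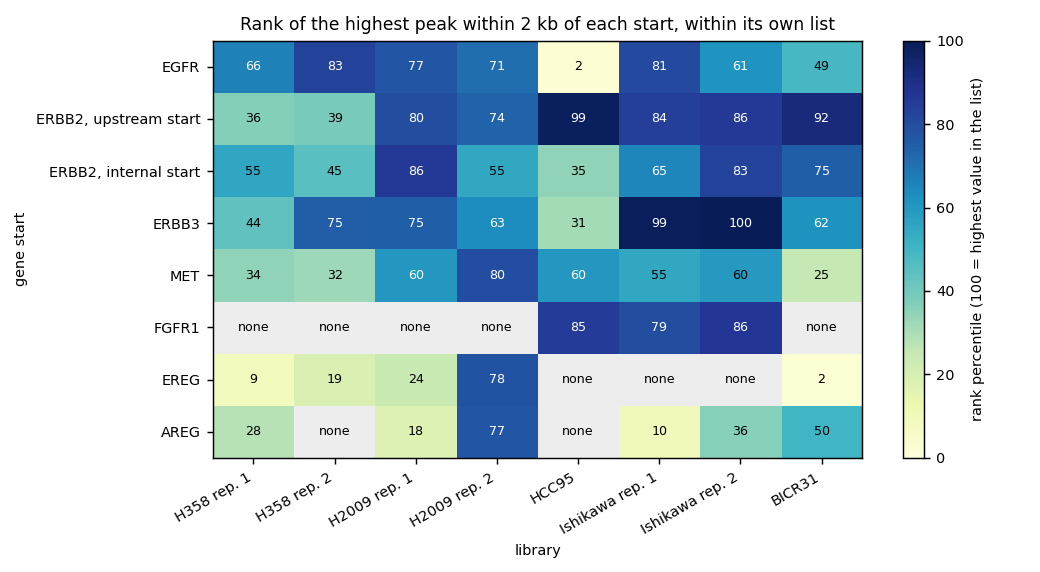
Rank percentile of the highest-ranked peak within 2 kb of each gene start (rows; both ERBB2 starts are shown) in each of the 8 libraries (columns); 100 is the highest value in that list and grey cells hold no peak. EGFR, ERBB2, ERBB3 and MET have a value in every column, and FGFR1, EREG and AREG have gaps.

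EGFR, at chr7:55086725-55275031 on the plus strand, had peaks just past its start in every library. In H358 the start peak stood at percentiles 66.0 and 82.7, in H2009 at 77.2 and 70.9, and in Ishikawa at 80.6 and 61.3. In HCC95 the peak at the EGFR start was 3284 bp wide, wider than 99.9% of the peaks of that list, with a percentile of 2.10 by fold enrichment and 86.6 by q. The BICR31 peak was 2026 bp wide, at percentile 48.7 by fold enrichment and 85.4 by q. The EGFR start was thus marked in all lines, and the order of the lines depends on which deposited value ranks the peaks.

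The lines differed more away from the EGFR start. The EGFR window held 7 and 10 peaks in H358, 9 and 10 in H2009, 11 in squamous HCC95, 6 and 6 in Ishikawa and 18 in BICR31. Called bases there were 3277 and 3240 in H358, 3499 and 3780 in H2009, 18590 in squamous HCC95, 6819 and 5134 in Ishikawa, and 21309 in BICR31. The 2 squamous libraries, which are also the broadPeak lists, were the highest and did not overlap with the other 6. Per Mb of called sequence they held 868 and 525, against 158 to 330 in the others. For this and later splits of libraries by called bases or rank, the share of other windows that split the same way was not computed. Inside the gene body, Ishikawa had 0 and 1 peaks, H358 had 4 and 4, H2009 had 4 and 5, HCC95 had 5 and BICR31 had 9.

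Of the 24 merged regions at EGFR, 5 had peaks in HCC95 and BICR31 and in no other line. Across all regions 3.56% fell in that class, and over the 6 windows 10 of 115 did. That 10 became 6 with flanks of 50 kb, 4 with lists of equal length, and 1 or 3 with the higher-ranked 50% of each list by fold enrichment or by q. The widest of the 5, chr7:55176520-55179617, lies inside EGFR, 89.8 kb past its start, and spans 3098 bp. Another 2 lie inside the gene, at chr7:55110938-55112744 and chr7:55120272-55122793, and the remaining 2 lie upstream at chr7:55013899-55015442 and chr7:55027552-55029799. By q the HCC95 peak in the widest region stood at percentile 39.4 and the BICR31 peak at 65.0. By fold enrichment the median percentile over all peaks of the EGFR window was 9.11 in HCC95 and 28.2 in BICR31. A further 5 regions were called in BICR31 alone, which is 20.8% of the EGFR regions beside 21.9% of all regions, the widest at chr7:55141229-55142830 within the gene. Only 2 EGFR regions had a peak in all 8 libraries: the start, and chr7:55322131-55323743, beyond the end of the gene and 235 kb past its start. That region held the highest-ranked distal EGFR peak of both H358 libraries (percentiles 93.9 and 88.1), of H2009 replicate 1 (95.2), of HCC95 (83) and of Ishikawa replicate 2 (63.5). In H2009 replicate 2 and Ishikawa replicate 1 the highest-ranked distal peak lay about 86 kb upstream (percentiles 85.5 and 46.0), and in BICR31 it lay 51.9 kb upstream (71.7). No EGFR region was private to HCC95, nor to H358, H2009 or Ishikawa in both libraries of the line.

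**Figure D2:**
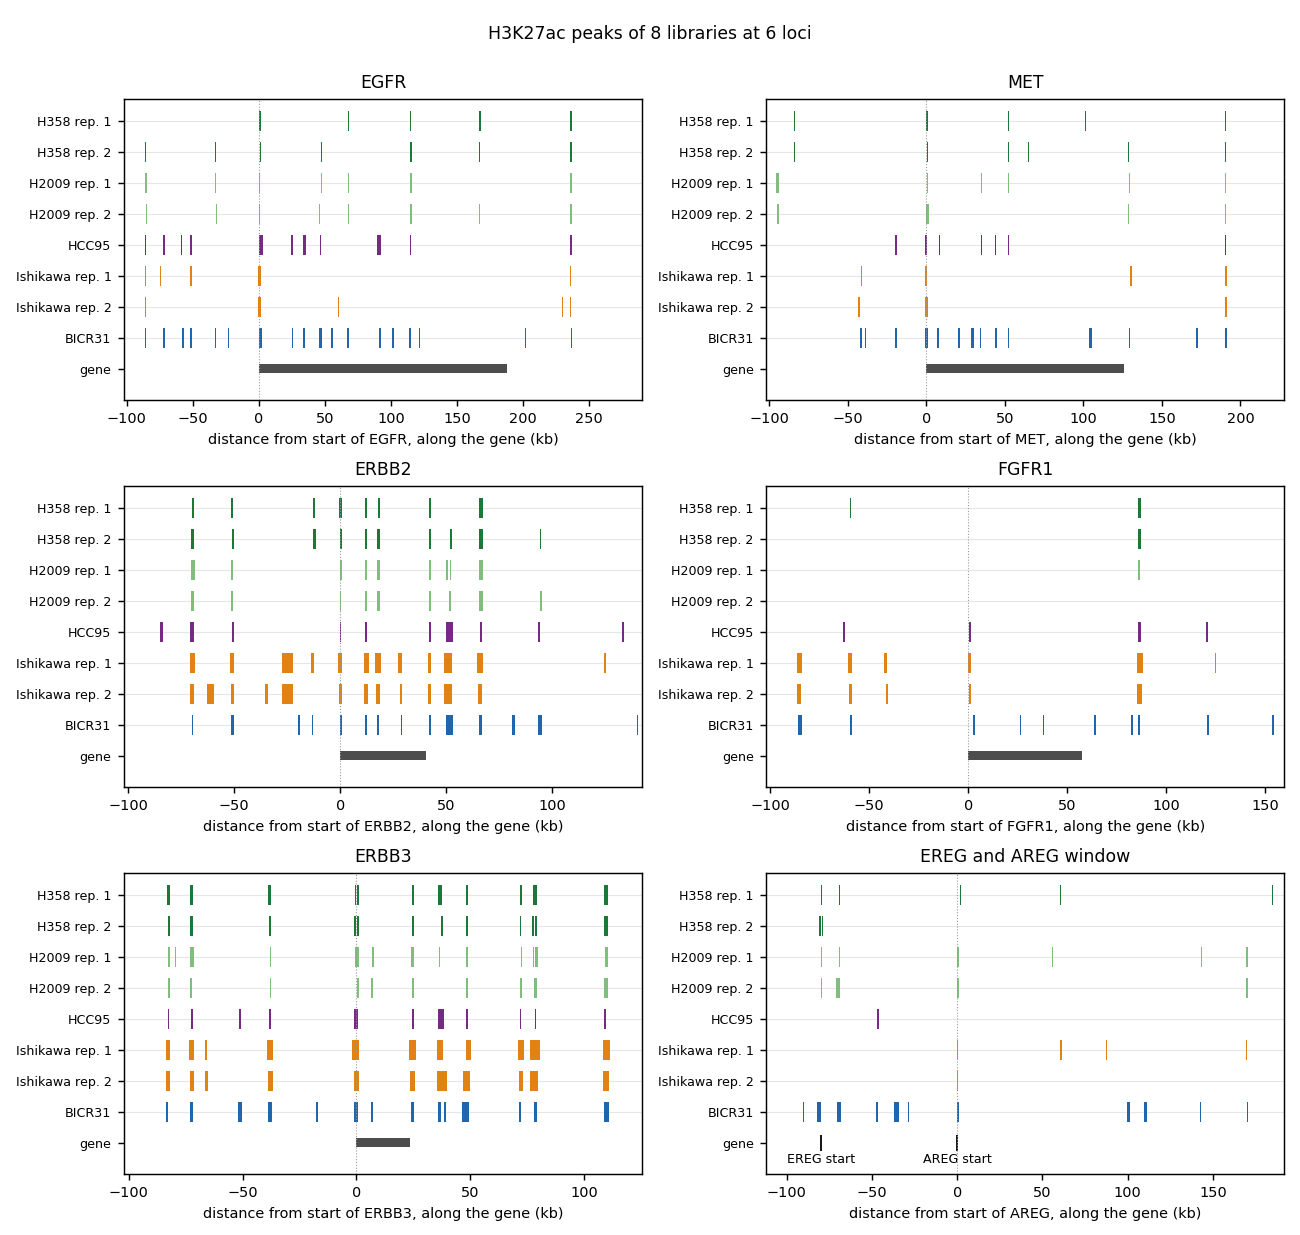
H3K27ac peaks (coloured bars) in the 8 libraries at the 6 loci, against distance in kb from the gene start along the direction of transcription; the dark bar is the gene, or the 2 ligand starts, and the shortest bars are widened to stay visible. HCC95 and BICR31 share peaks within EGFR that the other lines lack, and peaks near ERBB3 line up in all 8 libraries.

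ERBB2, the ligandless receptor amplified in a share of breast and other carcinomas, lies at chr17:37844393-37884915 on the plus strand, and both its upstream start and its internal start, 11.9 kb further on, had a peak in all 8 libraries. At the upstream start HCC95 had the highest value. Its peak ranked 317 of 23400 (percentile 98.6), followed by BICR31 at 92.5, Ishikawa at 84.2 and 86.2, H2009 at 79.6 and 73.8, and H358 at 36.4 and 39.0. H358 replicates thus lay below those of every other line there. At the internal start the percentiles were 55.4 and 45.2 in H358, 86.3 and 55.0 in H2009, 34.7 in squamous HCC95, 65.2 and 82.6 in Ishikawa and 74.8 in BICR31. HCC95, highest at the upstream start, was lowest at the internal one. The 2 H2009 replicates were as far apart at the internal start as most lines were from each other, so the order of neighbouring lines there is within the spread of replicates.

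Called bases in the ERBB2 window were 5474 and 5980 in H358, 7738 and 7734 in H2009, 12006 in squamous HCC95, 28140 and 26153 in Ishikawa, and 16783 in BICR31. Ishikawa stood above the other lines, and its lists also hold some of the widest peaks. Relative to all called sequence of the list, the values were 465 and 497 bases per Mb in H358, 713 and 676 in H2009, 560 in squamous HCC95, 680 and 806 in Ishikawa, and 413 in BICR31. On that scale Ishikawa and H2009 overlapped.

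ERBB2 sits among close neighbours, with PGAP3 before it and MIEN1 and GRB7 after it in the RefSeq order, and peaks of the window cannot be assigned to 1 of these genes. Of its 21 regions 6 had a peak in all 8 libraries, or 28.6% beside 12.1% of all regions. The widest of the 6, chr17:37909060-37911691, lies 64.7 kb past the start. The region at chr17:37885649-37887200, just past the end of the gene, held the highest-ranked distal peak of BICR31 (percentile 97.3), H2009 (97.5 and 92.8) and H358 replicate 1 (93.6), while that of HCC95 (95.3) and H358 replicate 2 (92.2) lay 51 kb upstream. In Ishikawa it lay 70.9 kb upstream (76.8) in replicate 1 and 65 kb past the start (74.3) in replicate 2. Both Ishikawa libraries alone had a peak at chr17:37816821-37822048, 5228 bp wide and upstream of the gene, the widest region of the window. HCC95 alone had 2 regions, the wider at chr17:37759118-37760582, and BICR31 alone had 3, the widest at chr17:37925419-37926980.

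The ERBB3 window had the highest share of regions called in all 8 libraries among the 6 loci. The gene lies at chr12:56473809-56497291 on the plus strand, between RPS26 and PA2G4. The ERBB3 start peak was near the top of both Ishikawa lists, at rank 206 of 24384 (percentile 99.2, width 3043 bp) and rank 58 of 27311 (percentile 99.8, width 2616 bp). The other libraries had start peaks at percentiles of 43.5 and 75.2 in H358, 74.6 and 63.4 in H2009, 31.0 in squamous HCC95 and 61.7 in BICR31. Both Ishikawa values lay above all 6 others. By q the HCC95 peak stood at 42.1 and the BICR31 peak at 87.1.

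Of the 15 regions of the ERBB3 window, 9 had a peak in all 8 libraries, or 60% beside 12.1% of all regions. How many of the 9 lie at the starts of neighbouring genes was not checked, so the share describes the window rather than ERBB3. The start was 1 of them, at chr12:56472005-56475144. The widest was chr12:56550089-56554331, 4243 bp, downstream of the gene and 76.3 kb past its start. That region held the highest-ranked distal peak of Ishikawa replicate 2 (98.9) and BICR31 (96.2). In the other libraries that peak lay 73.3 kb upstream (Ishikawa replicate 1, 96.5), 38.1 kb upstream (H2009 replicate 1, 82.4), 38.2 kb upstream (H358 replicate 2, 91.8), 24.6 kb past the start (H358 replicate 1, 86.9), 48.2 kb past it (H2009 replicate 2, 99) and 71.7 kb past it (HCC95, 92.7). HCC95 and BICR31 alone shared 1 region, chr12:56421811-56423561. Peaks in the highest-ranked 10% of their lists made up 19 of the 113 at ERBB3 (16.8%), 10 of 101 at ERBB2 (9.90%), 4 of 53 at MET (7.55%) and 2 of 77 at EGFR (2.60%), and there were none among 31 at FGFR1 and 36 at the ligands. Over the 6 windows the share was 35 of 411, or 8.52%, near the 10% that the class holds by its definition. The lines were uneven at ERBB3. The median percentile of its peaks was 93.8 and 85.3 in Ishikawa and 43.9 to 68.5 in the other libraries. H358 replicate 1 and H2009 replicate 1 had no ERBB3 peak in the class (highest 86.9 and 82.4). Most of the ERBB3 window's peaks were in the flanks (97 of 113), where the RefSeq order places other genes such as PA2G4, RPL41 and ESYT1 downstream.

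Called bases at ERBB3 were 8665 and 7405 in H358, 7590 and 6437 in H2009, 11078 in squamous HCC95, 27666 and 26640 in Ishikawa and 17594 in BICR31. Per Mb of called sequence this was 736 and 615 in H358, 699 and 563 in H2009, 517 in squamous HCC95, 668 and 821 in Ishikawa, and 433 in BICR31. The 2 squamous libraries were the lowest of the 8 on this scale, the reverse of their place at EGFR. Only 2 ERBB3 regions were limited to 1 line in all its libraries: chr12:56407483-56408485 in Ishikawa, and a 211 bp region in BICR31.

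MET, the hepatocyte growth factor receptor, lies at chr7:116312459-116438440 on the plus strand, between CAV1 and CAPZA2. Its start peak had percentiles of 34.4 and 32.1 in H358, 60.2 and 80.0 in H2009, 60.5 in squamous HCC95, 55.0 and 59.7 in Ishikawa and 25 in BICR31. By q the MET start peak ranked higher in H2009 (90.9 and 97.6), HCC95 (87.7) and BICR31 (80.4) than in H358 (48.1 and 55.3). H358 was below H2009 at the MET start on both measures, and the replicates of these 2 lines did not overlap.

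BICR31 carried the most peaks at MET. The MET window held 6 and 6 peaks in H358, 7 and 5 in H2009, 7 in squamous HCC95, 4 and 4 in Ishikawa and 14 in BICR31. Called bases were 2279 and 2436 in H358, 3123 and 2189 in H2009, 5439 in squamous HCC95, 5428 and 2569 in Ishikawa, and 15224 in BICR31, which had the longest of the 8 lists by number of peaks. Of the 23 MET regions, 6 were in BICR31 alone, or 26.1% beside 21.9% of all regions. The widest of these was chr7:116340886-116342946, 28.4 kb past the start within the gene. HCC95 and BICR31 alone shared 2 regions, chr7:116292416-116293799 upstream of the gene and chr7:116356020-116357438 within it.

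Only 2 MET regions had a peak in all 8 libraries, the start and chr7:116502532-116503913, which lies beyond the gene toward CAPZA2 and 190 kb past the MET start. The second held the highest-ranked distal peak of 7 libraries, with percentiles of 91.7 and 94.9 in H358, 88.4 and 85.8 in H2009, 95.6 in squamous HCC95, and 82.7 and 84.9 in Ishikawa. In BICR31 the highest-ranked distal peak lay inside MET, 51.6 kb past the start, at percentile 95.9. Whether peaks inside these genes lie in introns, exons or UTRs is not given, as no hg19 gene models were used here. For the same reason, whether the shared region toward CAPZA2 lies at the start of that gene was not checked.

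FGFR1, on the minus strand of chromosome 8 between LETM2 and TACC1, was the receptor with the fewest start peaks. At the FGFR1 start HCC95 had a peak 1133 bp wide at percentile 84.9, and Ishikawa had peaks at 79.4 and 86.4. No peak lay within 2 kb of the FGFR1 start in H358, H2009 or BICR31. BICR31 had a 949 bp peak at 2.36 to 3.31 kb into the gene, outside the 2 kb limit. A list without a peak shows only that none was called, and the depth behind each list is unknown.

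FGFR1 was also the receptor with the fewest called bases in the lung adenocarcinoma lines. Called bases in its window were 1270 and 823 in H358, 425 and 0 in H2009, 4552 in squamous HCC95, 11818 and 8380 in Ishikawa, and 9541 in BICR31. The 4 lung adenocarcinoma libraries were below the other 4, without overlap, also per Mb of called sequence (108, 68.4, 39.2 and 0 against 213 to 285). These 4 lists are also the narrowPeak lists, so tumour type and list form cannot be told apart in this split. No FGFR1 region was called in all 8 libraries. The most shared one, 2992 bp wide and 85.1 kb past the start, was called in 7 libraries and missed in H2009 replicate 2. The RefSeq order places LETM2 and NSD3 on that side of FGFR1, and whether the region lies at the start of another gene was not checked. This region held the highest-ranked distal peak of both Ishikawa libraries (82.4 and 85.5), H358 replicate 2 (37.7), H2009 replicate 1 (14.5) and HCC95 (22.5 by fold enrichment and 98.5 by q). In BICR31 (83) and H358 replicate 1 (24.6) that peak lay 59.9 kb upstream. Of the 14 FGFR1 regions, 6 were in BICR31 alone, which is 42.9% beside 21.9% of all regions. Over all 6 windows BICR31 had 26 regions of its own, and 5 when each list was limited to its 23400 highest-ranked peaks.

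The ligand genes EREG and AREG lie 80.0 kb apart on chromosome 4, with EREG first, both on the plus strand, and BTC, the betacellulin gene, is the next gene after AREG in the RefSeq order. The EREG start had a peak in both H358 libraries (percentiles 8.66 and 18.8), both H2009 libraries (23.9 and 78.2) and BICR31 (1.63 by fold enrichment and 60.9 by q, width 2333 bp). HCC95 and both Ishikawa libraries had none. The AREG start had one in H358 replicate 1 (28.1), in H2009 (17.9 and 77.1), in Ishikawa (9.97 and 36.2) and in BICR31 (50.3). H358 replicate 2 and HCC95 had none, and the H358 replicate 1 peak lay 1.64 to 1.92 kb past the AREG start. HCC95 was the 1 line with a peak at neither ligand start. Apart from H2009 replicate 2, with 78.2 and 77.1, no ligand start peak ranked above percentile 50.3 by fold enrichment or score.

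The ligand window as a whole was sparse in every line but BICR31. Its called bases were 1735 and 1167 in H358, 1939 and 1533 in H2009, 411 in squamous HCC95, 2481 and 485 in Ishikawa, and 15609 in BICR31. HCC95 had a single peak there, 46.8 kb before the AREG start and at percentile 8.0. No region of the 18 was called in all 8 libraries, and 5 were in BICR31 alone (27.8%). The widest of these, chr4:75273980-75276679, spans 2700 bp between the 2 ligand genes. HCC95 and BICR31 alone shared chr4:75263409-75264501, also between them.

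The highest-ranked distal peak of the ligand window in BICR31 (percentile 78.1), H2009 replicate 2 (68.8) and Ishikawa replicate 1 (39.8) fell in the same region, chr4:75480285-75481272. It lies about 169 kb past the AREG start. From general knowledge, hg19 is thought to carry a near-identical copy of AREG in this stretch. No annotation used here bears on that, and whether reads of such a copy touch the AREG start peaks was not tested. Both H2009 libraries, Ishikawa replicate 1 and BICR31 had a peak in this region and at the AREG start. H358 replicate 1 and Ishikawa replicate 2 had one at the AREG start alone. At the AREG start, H2009 replicate 2 stood at 77.1, BICR31 at 50.3 and Ishikawa replicate 1 at 9.97. The highest-ranked distal peak of H2009 replicate 1 lay 143 kb past the AREG start (43.3) and that of H358 replicate 1 60.4 kb past it (55.2), while H358 replicate 2 and Ishikawa replicate 2 had no distal peak in the window.

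Broad clusters were made by joining peaks across the gap usual in calls of super-enhancers and scoring each cluster by peak width times the authors' value; those past the point of slope 1 in the ranked curve were kept. The rule kept between 5.15% of clusters in H2009 replicate 1 and 8.51% in BICR31 (5.71% and 7.45% in H358, 6.48% in H2009 replicate 2, 7.32% in squamous HCC95, 5.19% and 8.39% in Ishikawa). Windows at ERBB2 and ERBB3 held a kept cluster in all 8 libraries, EGFR and MET in 2, the ligands in 1 and FGFR1 in 0. A window of 223 to 388 kb can hold several clusters, and the share of other such windows with a kept cluster was not computed. These counts therefore describe the windows and have no background to be read against.

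The ERBB2 cluster over the gene start was kept in every library. In Ishikawa it ranked 7 of 18937 (94.7 kb long, 9 peaks) and 21 of 18626 (67.8 kb, 7 peaks). In H2009 it ranked 120 and 150, in H358 298 and 177, in BICR31 438 of 29736 and in HCC95 1331 of 19855. The ERBB3 start itself lay in a kept cluster in both Ishikawa libraries (ranks 464 and 256) and in H2009 replicate 2 (rank 819). Ishikawa had further clusters of 27.2 kb at rank 57 and 26.5 kb at rank 53 that overlapped the end of ERBB3 and ran downstream. The other kept clusters lay beside the gene, among them one of 24.5 kb at rank 74 in HCC95.

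At EGFR, the kept clusters were all in HCC95 and BICR31. HCC95 had 4, the highest of which spanned 22.5 kb inside the gene at rank 168 of 19855. BICR31 had 2 inside the gene, of 43.3 kb at rank 234 and 31.6 kb at rank 496 of 29736. At MET, BICR31 had a cluster of 53.5 kb and 7 peaks over the start, at rank 56 of 29736, and HCC95 had one of 18.2 kb inside the gene at rank 1359. BICR31 also had the 2 kept clusters of the ligand window, over EREG (rank 948) and between the genes (rank 1599).

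**Figure D3:**
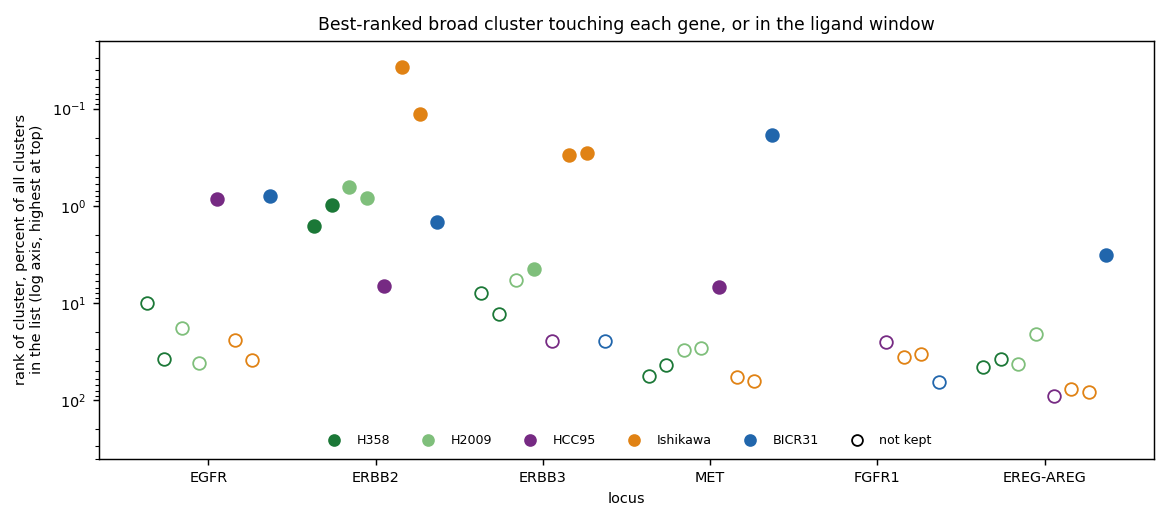
Best-ranked broad cluster touching each receptor gene, or in the ligand window, in each of the 8 libraries, as its rank in percent of all clusters of that list (log axis, highest at the top); filled points were kept and open points were not. ERBB2 is filled in all 8 libraries, EGFR and MET only in HCC95 and BICR31, the ligand window only in BICR31, and FGFR1 in none.

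At these loci, replicates of a line had on average more called bases in common than did libraries of different lines. Agreement was measured as the Jaccard index, the bases called in both lists over those called in either. Over the 6 windows together it was 0.448 for the H358 replicates, 0.506 for H2009 and 0.657 for Ishikawa. The mean of these was 0.537, against 0.251 for pairs from different lines, a difference of 0.286 (exact one-sided permutation test over 420 assignments of replicate pairs, p = 0.00238, the smallest it can give). Adjusted over the 6 loci, the exact permutation p was 0.00476 at EGFR, ERBB3 and MET, 0.00714 at ERBB2, 0.0171 at the ligands and 0.0190 at FGFR1. Every replicate pair shares 1 list form, whereas most pairs from different lines do not. These tests therefore cannot tell line from list form. Single pairs could go the other way: at EGFR the H358 replicates had an index of 0.396, below H358 replicate 1 with either H2009 library (0.440 and 0.434), and at ERBB2 0.476, below both H358 libraries with H2009 replicate 1 (0.536 and 0.504). The call at FGFR1 was lost without any 1 of the H358 or Ishikawa libraries, and that at the ligands without any 1 of the H2009 or Ishikawa libraries (highest exact p of 0.143 and 0.248). The FGFR1 call was also lost with the higher-ranked 50% of each list (difference 0.203, exact p = 0.107). Among the H358 and H2009 lists alone, which share 1 form, the pooled difference was 0.0837, and it was 0.0181 at EGFR and 0.0817 to 0.110 at the other loci, each with an exact p of 0.33 that is the smallest that design can give.

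**Figure D4:**
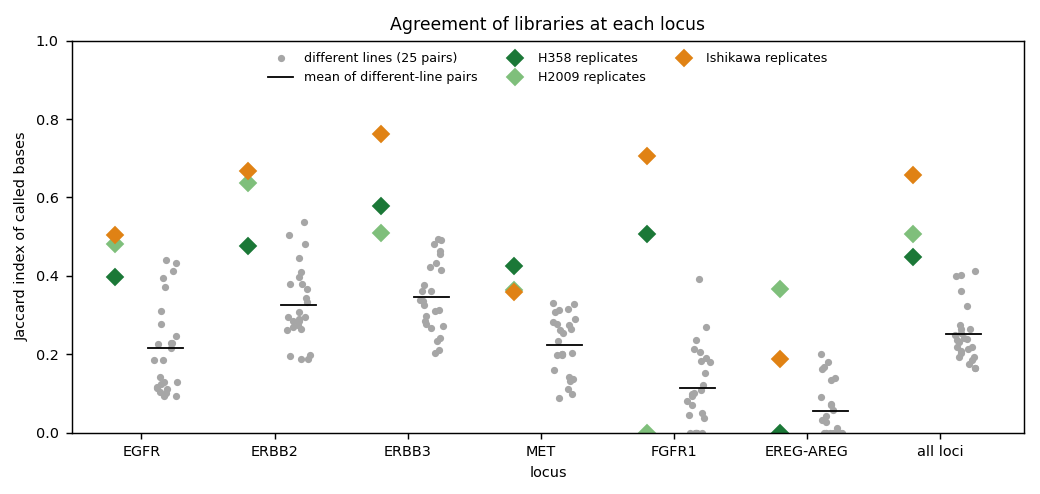
Jaccard index of called bases for pairs of libraries at each locus; diamonds are the 3 replicate pairs, grey points the 25 pairs from different lines, and bars their mean. Replicate pairs lie above that mean except for H2009 at FGFR1 and H358 at the ligands, where the index is 0.

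The share of called bases at each locus was compared between lines with 1 value per line. The squamous lines had a mean of 696 bases per Mb of called sequence at EGFR, against 254 in the other 3, a difference of 442 (two-sided exact permutation test over lines, p = 0.1, the smallest that 10 assignments can give; adjusted over 6 loci 0.3). At ERBB3 they were lower by 208 (475 against 684, exact p = 0.1, adjusted 0.3). The differences at ERBB2 (-152), MET (134), FGFR1 (97.2) and the ligands (96.5) had exact permutation p of 0.2 to 0.7. No adjusted value passed 0.05, and with 2 lines against 3 none could. When only the higher-ranked 50% of each list was kept, by fold enrichment, the EGFR difference turned to -26.1, and when ranked by q it was 511, a choice made after the data had been seen.

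**Figure D5:**
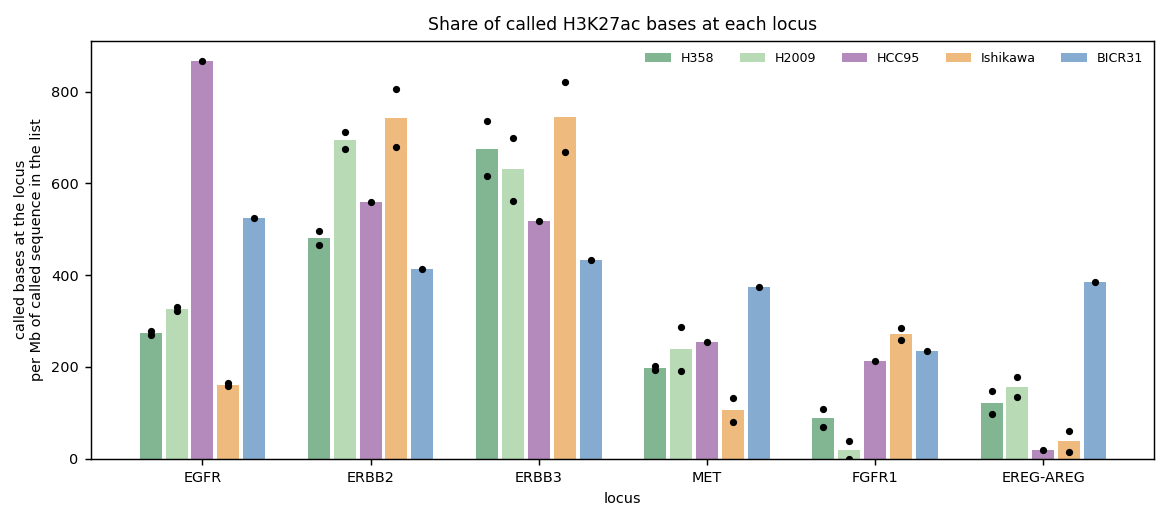
Called bases at each locus per Mb of called sequence of the same list; bars are means over the libraries of a line, black points single libraries. HCC95 (868) and BICR31 (525) lie above the other libraries at EGFR and below them at ERBB3.

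H358 and H2009, the lung adenocarcinoma lines with lists of the same form, were compared with 2 libraries each. At ERBB2 the H358 mean was 481 ± 22.4 bases per Mb of called sequence (SD, n = 2) and the H2009 mean 695 ± 26.1, and the replicates did not overlap. At EGFR the means were 274 ± 6.56 and 326 ± 5.66, and at FGFR1 88.1 ± 28.0 and 19.6 ± 27.7, also without overlap. The exact two-sided permutation p was 0.33 at these 3 loci, the smallest that 2 against 2 can give. A lack of overlap is thus a frequent outcome of this design, and its share over other windows was not computed. At ERBB3 (676 ± 85.6 and 631 ± 96.7), MET (198 ± 6.17 and 240 ± 68.2) and the ligands (122 ± 35.7 and 156 ± 31.6) the replicates overlapped. Of the 115 regions none was called in all 4 of these libraries and nowhere else, a class that held 0.497% of all regions.

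Over all loci, 19 of 115 regions (16.5%) were called in all 8 libraries, beside 12.1% of all regions. Of the 19, 15 were in the windows of ERBB2 and ERBB3, which also hold other genes. Regions called in every library of 1 line and in no other line numbered 35 (30.4%), beside 35.8% of all regions. BICR31 alone accounted for 26 of them (22.6% beside 21.9%), so its private regions at these genes were close to its share elsewhere. HCC95 alone had 4 (3.48% beside 6.2%), Ishikawa 3 (2.61% beside 5.11%), and H358 and H2009 1 each (0.870% beside 1.32% and 1.27%). The private H358 and H2009 regions both lay upstream of MET, at chr7:116228058-116228434 and chr7:116217434-116217841.

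Start peaks were also counted at 16 other genes of the same pathways. A peak within 2 kb of the start was found in all 8 libraries at BTC and TGFA (EGFR ligands), GAB1 (an adaptor downstream of MET and EGFR), and ERRFI1, CBL and SPRY4 (negative feedback). HGF, the ligand of MET, had none in any library. The start peak of BTC, the neighbour of AREG, reached percentiles of 83.3 and 99.3 in H358, 95.4 and 98.5 in H2009, 89.0 and 83.7 in Ishikawa and 98.8 in BICR31. In HCC95 it stood at 10.7. GRB7, an adaptor that binds ERBB2 and lies inside its window, had a start peak in 7 libraries, all but H358 replicate 1.

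Among the other receptors, FGFR2 had a start peak in HCC95, BICR31 and both Ishikawa libraries and in none of the 4 lung adenocarcinoma libraries, and those 4 libraries, with BICR31, also lacked one at FGFR1. ERBB4 had one in 5 libraries and lacked it in HCC95, BICR31 and H2009 replicate 1. EGF had one in 3 libraries, both of H358 and H2009 replicate 1. Per library, 8 to 14 of the 16 genes had a start peak, again with no share of all gene starts to set beside it. Of the 7 genes described first, 5 or 6 had one in each library.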

How the data were processed

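The submitters' processing notes name BWA and the build hg19. Not given in the sources used here: version, peak caller, control and depth. The authors deposited 1 list per sample, with a fold enrichment ratio, a −log10 p and −log10 q, a score and an other value (summit offset, not used) per peak, or 1 score per peak in Ishikawa. These are the authors' values and served to rank peaks within a list. Only chromosomes 1 to 22 and X entered, and 531 peaks of the 8 lists fell outside them. Overlap meant at least 1 bp.

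Receptor spans were those of the selection rule. Starts of EREG and AREG, the internal ERBB2 start, and spans of pathway and marker genes came from general knowledge of hg19, with span lengths checked within 10% of RefSeq. EPGN, DUSP6 and TP63 failed. EPGN and DUSP6 were left out, and TP63 is given only as marker values. RefSeq (GRCh38.p14) otherwise gave only gene order and promoter sequences. Members and lists were chosen with earlier results of these data known. Named were all 7 genes, the highest-ranked distal peak of each library per locus, the widest regions in all 8 libraries, in 1 line or in a pair of lines of the same type (those of FGFR1, and in part of MET, only by count), and pathway genes with a start peak in every library or none, with GRB7, FGFR2, ERBB4 and EGF added after their values were seen. Whether replicates came from separate cultures is not in the labels, and p-values then measure only the spread between these samples, possibly technical. Exact permutation tests ran in Python 3.11.15 (numpy 2.4.6, pandas 2.3.3), tested on simulated data.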

Additional observations from a re-analysis of the deposited data

Results flagged for a closer look

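Signal at these loci also appeared in the 4 short H2009 lists that no comparison above used. At ERBB2 the e3KRAB1 list held 833 called bases per Mb of called sequence, above the 713 of the Control list and the 492 of the Empty list. At MET the e3KRAB2 list held 656 called bases per Mb of called sequence, above the 536 of Empty and the 329 of Control. The other e3KRAB list did not show the same: at ERBB2 e3KRAB2 held 0, and at MET e3KRAB1 held 433, below Empty. The order also depends on scaling to the length of the list. Unscaled, e3KRAB1 held 750 called bases at ERBB2, between the 374 of Empty and the 936 of Control. At MET e3KRAB2 held 345, below the 408 of Empty and the 432 of Control. Each value above 0 rests on 1 or 2 peaks of 1 library and has no replicate.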

How the results depend on the processing

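The fixed window size, the promoter distance, the clustering distance and the length and form of the lists were each varied. Keeping the higher-ranked 50% of each list reversed the squamous difference over all loci (409 to -43.9 bases per Mb of called sequence), and those at EGFR (-26.1) and FGFR1 (-19.3), the H358 minus H2009 difference at ERBB3 (-34.4) and replicate agreement at the ligands (-0.00601), and ended the agreement call at FGFR1 (0.203, exact p = 0.107). It left 30 of 46 gene and library pairs with a start peak, 5 regions in all 8 libraries, 19 in 1 line, and 55 of 93 pathway start peaks. The same choice by q, added after the data had been seen, again reversed agreement at the ligands (-0.0183) and left 6 regions in all 8 libraries and 16 in 1 line, while the squamous difference was 374. Lists of equal length turned the squamous difference at the ligands to -8.31. When peaks had to cover 50% of a region, 0 regions were in all 8 libraries and 54 in 1 line. The narrowPeak lists alone gave an agreement difference of 0.0837 (exact p = 0.33). Without BICR31, 23 regions were in 1 line. The cause was not tested.

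Leaving out each replicate in turn moved the H358 minus H2009 difference at ERBB3 between -23.7 and 113 and at MET between -89.8 and 6.66, which reverses both; ERBB3 was -15.9 without H358 replicate 1 and -23.7 without H2009 replicate 2, and MET 6.66 without H2009 replicate 1. Pooled agreement stayed between 0.217 and 0.340. Labels give H358, H2009 and Ishikawa the same replicate numbers, but same-numbered libraries did not deviate together over 8576 regions. The correlation was -0.00226 for H358 with H2009, -0.0192 for H358 with Ishikawa and -0.00614 for H2009 with Ishikawa. With the number as a replicate block the H358 minus H2009 difference over all loci was again -229 bases per Mb of called sequence (exact p = 0.5, the smallest that design allows), and no call changed.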

Other observations

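At the 6 loci the short H2009 lists held few peaks. Empty had 1 peak at ERBB2 and 1 at MET, and Control had 1 at EGFR, 2 at ERBB2, 1 at ERBB3 and 1 at MET. The e3KRAB1 list had 2 at ERBB2 and 1 at MET, and e3KRAB2 had 1 at MET. None had a peak at FGFR1 or in the ligand window. The MET peak of all 4 lists lay in the region 190 kb past the MET start that was called in all 8 full libraries. Peak names inside the e3KRAB2 list carry a control tag and those of the Control list another tag, so the identity of these lists could not be checked.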
